A study of Mus musculus with 12 samples.

Results

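The nuclear genes of respiratory complexes III and IV, cytochrome c and ATP synthase were followed through 2 sorted cell fractions of the mouse hippocampus. The members are the nuclear protein-coding genes whose symbol starts with Uqcr, Cox4i, Cox5, Cox6, Cox7, Cox8 or Atp5, together with Cyc1 and Cycs, and whose Ensembl identifier is in both count tables. This gave 44 of the 25442 genes shared by the tables, namely 9 of complex III, 1 for cytochrome c, 17 of complex IV and 17 of ATP synthase. Of the 46 protein-coding identifiers with such a symbol, 2 (Cox8c and a second identifier of Atp5o) were in neither table. The series holds 12 RNA sequencing libraries, 3 in each of 4 groups. Male C57Bl6/J mice received at 2 months a bilateral CA1 injection of an AAV2/9 in which the GfaABC1D promoter, selective for astrocytes, drives murine A2A receptor (AAV-A2A) or eGFP (AAV-GFP), so that the controls also carry a vector and a transgene. Both hippocampi were taken at 4 months, 2 months after injection. Astrocytes were bound with ACSA-2 beads, and microglia with CD11b beads from the cells that the ACSA-2 beads had left. The labels do not tie the ACSA-2 and CD11b libraries to the same animals, and fraction, order of sorting and cohort cannot be told apart.

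Complex III passes electrons from ubiquinol to cytochrome c, a small carrier in the intermembrane space, and complex IV passes them on to oxygen. Both pump protons, and ATP synthase uses the resulting gradient to make ATP. Most subunits are encoded in the nucleus, with a few core subunits encoded by mitochondrial DNA, and several subunits of complex IV and of the c-ring of ATP synthase exist as paralogs used in different tissues. In the brain, neurons draw heavily on this system, and so does the ion-pumping epithelium of the choroid plexus.

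Total counts on genes were 33937067 to 53206974 per library. All 7 astrocyte markers were lower and all 7 microglia markers higher in CD11b than in ACSA-2 libraries, with either vector (edgeR quasi-likelihood test, adjusted p under 0.05). In the CD11b fraction 3 libraries stood apart. Ttr, which encodes transthyretin and marks choroid plexus, was at 68857 CPM (counts scaled to library size) in GFP-2328, 57703 in GFP-2329 and 25255 in A2A-2347, but at 79.5 in GFP-2331, 60.1 in A2A-2343 and 5.27 in A2A-2344. The 6 choroid plexus markers summed to 29399 to 72991 CPM in the first 3, to 9.68 to 94.7 in the other 3 and to 565 to 1008 in the ACSA-2 libraries, and the counts and medians of the members and gene lists are given below with and without them, while levels per kb, paralog shares and length classes are given with them only. Their 7 microglia markers summed to 7021, 14317 and 20098 CPM, against 48206 to 58272 in the other 3. GFP-2328 and GFP-2329 also had the highest sums for neurons (131 and 193 CPM) and erythrocytes (2137 and 5315). The part of such cells in the members' levels was not tested. In sorted material of this kind, fewer cells of a type and less RNA per cell cannot be told apart.

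The members took a larger share of the library in astrocytes than in most CD11b libraries. They held 1.29% of all counts in GFP-303, 1.09% in GFP-306 and 1.15% in GFP-307, and 1.37% in A2A-309, 1.31% in A2A-310 and 1.28% in A2A-313. In the CD11b fraction they held 1.26 and 1.05% in GFP-2328 and GFP-2329, but 0.398% in GFP-2331, and 0.342, 0.219 and 0.645% in A2A-2343, A2A-2344 and A2A-2347. The astrocyte groups thus did not overlap with AAV-A2A microglia, whereas AAV-GFP microglia spanned both levels. ATP synthase made up the largest part, with 0.617% ± 0.0292 (SD, n = 3) in AAV-GFP astrocytes and 0.659% ± 0.0332 in AAV-A2A astrocytes. Complex III held 0.293% ± 0.0254 and 0.342% ± 0.0122 in these groups, and complex IV 0.269% ± 0.0479 and 0.315% ± 0.0479. In microglia ATP synthase held 0.503% ± 0.248 with AAV-GFP and 0.258% ± 0.138 with AAV-A2A, a gap of about the size of the spread within the AAV-GFP group.

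**Figure D1:**
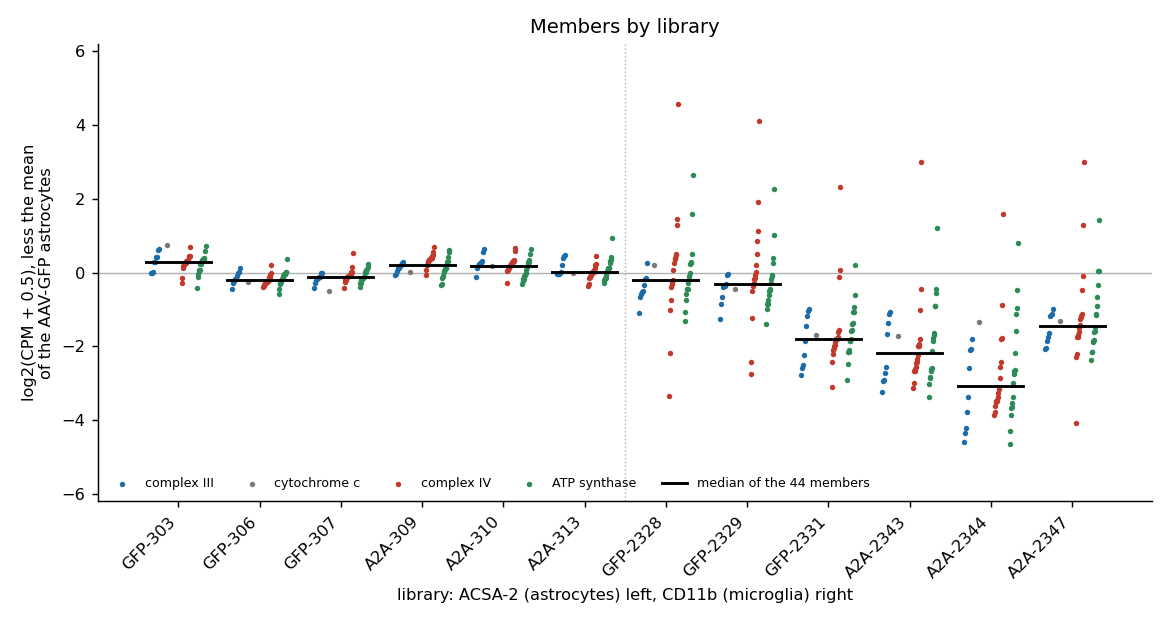
Level of each of the 44 members in each of the 12 libraries as log2(CPM + 0.5), less its mean in the AAV-GFP astrocytes, with points coloured by complex and a bar for the median. The medians lie between -0.20 and 0.30 in the ACSA-2 libraries, at -0.19 and -0.32 in GFP-2328 and GFP-2329, and between -3.08 and -1.44 in the other 4 CD11b libraries.

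Each complex had its highest CD11b medians in GFP-2328 and GFP-2329, its next highest in A2A-2347 and its lowest in A2A-2344. Relative to AAV-GFP astrocytes, on the log2 scale, the medians in GFP-2331 were -1.86 for complex III, -1.80 for complex IV and -1.57 for ATP synthase. In A2A-2344, the lowest library, they were -3.36, -3.27 and -2.74. In GFP-2328 they were -0.50, 0.07 and -0.18, and in A2A-2347 -1.62, -1.42 and -1.47. Of the 44 members, 17 in GFP-2328 and 11 in GFP-2329 lay above the mean of the AAV-GFP astrocytes, against 2 to 5 in the other 4 CD11b libraries.

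The levels per kilobase of exon differed over 3 orders of magnitude between members. In the 6 ACSA-2 libraries the 3 highest members all belonged to complex IV. Cox8a, a small subunit at the membrane face of the complex, had 656 CPM per kb ± 105 (SD, n = 6), Cox4i1, the housekeeping form of subunit 4, 640 ± 87.4, and Cox6a1, the non-muscle form of subunit 6a, 616 ± 126. Their ranges overlapped, so their order is not resolved. Atp5b, the catalytic beta subunit, was the highest member of ATP synthase with 499.6 CPM per kb ± 66.1. Uqcrfs1, the Rieske iron-sulfur protein, led complex III with 361 ± 48.7, and Cyc1, cytochrome c1, had 283 ± 35.1. In the 6 CD11b libraries Atp5b had the highest mean with 351 CPM per kb ± 161, Cox8a the highest of complex IV with 304 ± 261, and Cyc1 the highest of complex III with 132 ± 59.7. The order of Atp5b and Cox8a differed between these libraries, since Cox8a was above Atp5b in GFP-2328 (696 against 591 CPM per kb) and GFP-2329 (559 against 468), and below it in the other 4 (59.3 to 241 against 163 to 388). Uqcrfs1 had 95.2 ± 52.0 there. Of the 43 pairs of neighbours in the order of levels, 39 in the ACSA-2 and 42 in the CD11b libraries had overlapping ranges. These means are over both vectors. With the longest transcript as the length, Cox4i1 (1297 CPM per kb) moved ahead of Cox8a (738) in the ACSA-2 libraries.

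Some members were far below the rest of their complex. Cycs, the gene of cytochrome c itself, had 2.69 CPM per kb ± 0.905 (SD, n = 6) in the ACSA-2 and 1.33 ± 0.898 in the CD11b libraries. Atp5g2 and Atp5l were under 1 CPM per kb in both fractions, Cox6a2 in the ACSA-2 and Cox7b2 in the CD11b libraries. Counting kept only reads that matched the genome once and fell on 1 gene, and several members share stretches with other annotated genes. Of the 40-base stretches of the transcripts, 30.1% in Cycs, 36.6% in Atp5o, 29.2% in Cox5b, 29.0% in Cox7c, 25.9% in Atp5h, 25.2% in Uqcrc2 and 25.1% in Uqcrb also occur in another annotated gene. Genes that overlap a member at its own locus count here too, so that such stretches need not be copies elsewhere. Atp5o (its second identifier), Uqcrc2 (Pdzd9) and Uqcrb (Gm10767) have such overlaps. For the genes named here the level is uncertain, and so is the fold change if a copy or an overlapping gene is also expressed. Members that overlap a gene on the opposite strand, among them Cox4i1 (Emc8), Atp5j (Gabpa) and Uqcrc2 (Pdzd9), are uncertain too, since the strand setting of the counting is not given in the sources used here.

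**Figure D2:**
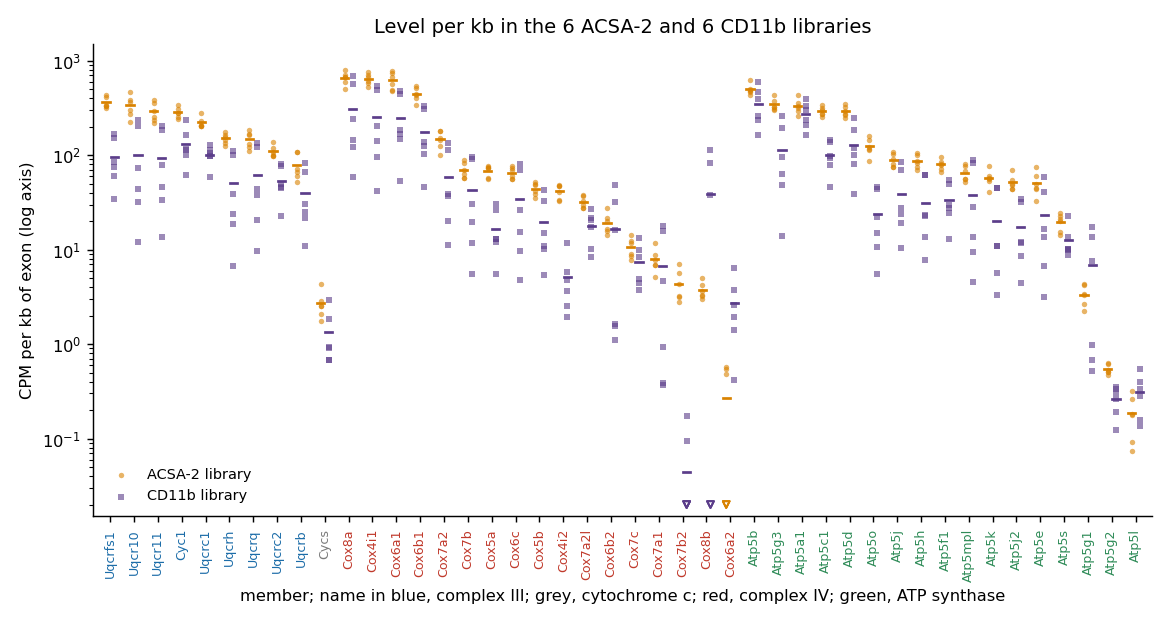
Level of each member per kb of exon in CPM (log axis) in the 6 ACSA-2 libraries (circles) and the 6 CD11b libraries (squares), with a bar for the mean, and open triangles at the lower edge for libraries at 0 counts. The CD11b libraries spread over about a decade for most members, and the ACSA-2 libraries lie close together.

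The paralogs of single subunits separated the CD11b libraries. Cox8b, the heart and skeletal muscle form of subunit 8, had 2174 counts in GFP-2328, 1285 in GFP-2329 and 796 in A2A-2347, the libraries with high Ttr, and 0 counts in GFP-2331, A2A-2343 and A2A-2344. A count of 0 allows up to 0.0716, 0.0719 and 0.0831 CPM in these 3 libraries, for counting error alone. Cox8b thus made up 14, 12.8 and 13.5% of the summed level of Cox8a and Cox8b per kb in the first 3 libraries, and 0.446 to 0.849% in the 6 ACSA-2 libraries. Cox6b2, the testis form of subunit 6b, made up 13.3, 8.69 and 11.3% of Cox6b1 plus Cox6b2 in GFP-2328, GFP-2329 and A2A-2347, and 1.15, 1.49 and 2.35% in GFP-2331, A2A-2343 and A2A-2344. Cox7a1, the muscle form of subunit 7a, made up 11.9, 9.32 and 8.67% of the summed level of its group (Cox7a1, Cox7a2 and Cox7a2l) against 1.42, 0.883 and 1.93%. Atp5g1, one of the 3 genes of the c-ring subunit, made up 6.33, 6.45 and 7.35% of the c-ring genes against 1.53, 1.39 and 3.54%, and Atp5g3 was the main c-ring gene in all 12 libraries, with 92.4 to 99.1%. In all 4 groups of paralogs the 3 libraries with high Ttr lay above the other 3 CD11b libraries and above the ACSA-2 libraries. The split of the libraries was made after these values had been seen, and no test was made of it.

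**Figure D3:**
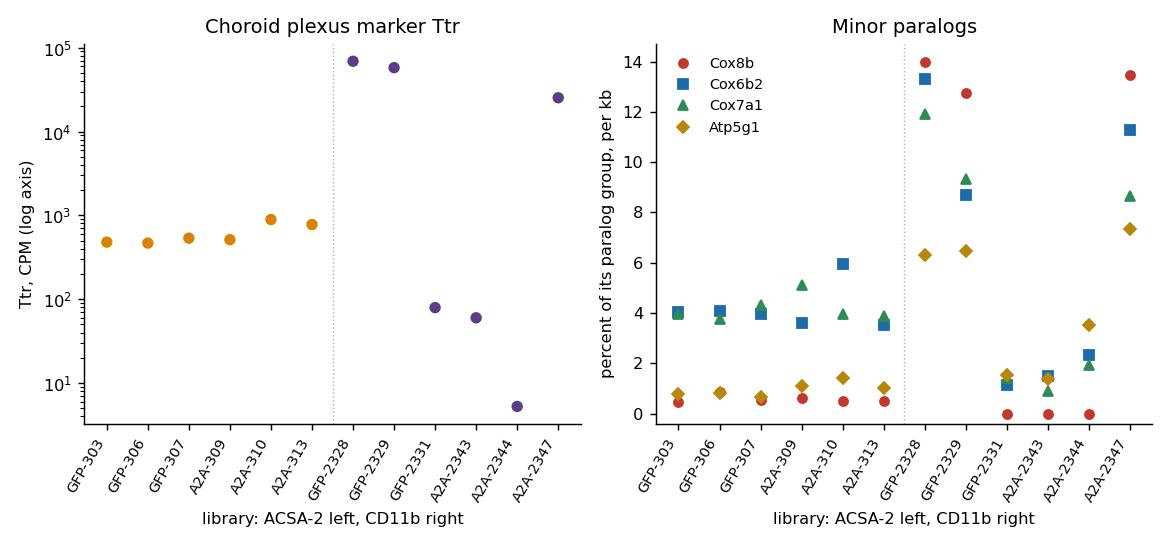
Left, Ttr in CPM (log axis) in the 12 libraries. Right, the percent that Cox8b, Cox6b2, Cox7a1 and Atp5g1 take of the level per kb of their paralog group, where GFP-2328, GFP-2329 and A2A-2347 are highest in each, and Cox8b is at 0 in the other 3 CD11b libraries.

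The shares of Cox4i2, Cox6a2 and Cox7a2l parted the CD11b libraries the opposite way. Cox4i2, the form of subunit 4 known from lung and from the response to low oxygen, had 26.4 to 38.2 CPM in AAV-GFP astrocytes and 26.1 to 37.0 in AAV-A2A astrocytes, but 2.87, 4.53 and 9.32 in AAV-GFP microglia and 1.51 to 3.79 in AAV-A2A microglia. It made up 5.15 to 7.60% of subunit 4 per kb in the ACSA-2 libraries. In the CD11b libraries it made up 0.739, 1.05 and 0.944% where Ttr was high, and 7.72, 4.76 and 5.63% in the other 3, where Cox4i1 was itself lower. Cox6a2, the muscle form of subunit 6a, was under 0.5 CPM in all ACSA-2 libraries with 0 counts in 3 of them, and reached 0.281 to 4.36 CPM in the CD11b libraries, with its highest value in A2A-2343. Its share of subunit 6a per kb was 0.0871, 0.585 and 0.835% where Ttr was high, and 1.97, 4.19 and 3.54% in the other 3 CD11b libraries. Cox6a2 overlaps Itgad, an integrin gene of leukocytes, on the opposite strand. Cox7a2l, which takes part in joining complexes III and IV, made up 14.6 to 21.8% of its group in the ACSA-2 libraries and 11.7, 12.2 and 19.03% in the CD11b libraries with high Ttr, but 41.5, 51.1 and 41.8% in the other 3.

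The promoters of both subunit 8 genes, of Atp5k (subunit e of ATP synthase) and of Cycs are printed because these members mark the patterns described here: Cox8a and Cox8b are the paralogs that part the CD11b libraries, Atp5k has among the largest falls in microglia, and Cycs is the low carrier gene. The sequences are RefSeq promoters in GRCm38.p6, all on the minus strand, at chr19:7217567-7217866 (Cox8a), chr7:140900397-140900696 (Cox8b), chr5:108434350-108434649 (Atp5k) and chr6:50566520-50566819 (Cycs). Each holds 250 bases before the RefSeq start and 50 after it, and that start lies inside the GENCODE gene for Atp5k and before it for Cycs. Capitals mark matches on either strand to the core sequences CGCATGCG (NRF1, its own reverse complement), CCGGAAG (ETS factors such as GABPA) and TATAAA (the core element bound by TBP).
Cox8a: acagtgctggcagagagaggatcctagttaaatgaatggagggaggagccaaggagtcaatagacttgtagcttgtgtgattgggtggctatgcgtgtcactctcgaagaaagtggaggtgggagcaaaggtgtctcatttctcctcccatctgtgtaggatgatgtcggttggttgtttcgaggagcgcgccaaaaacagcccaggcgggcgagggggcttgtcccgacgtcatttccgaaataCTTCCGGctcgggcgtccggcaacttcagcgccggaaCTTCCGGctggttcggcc
Cox8b: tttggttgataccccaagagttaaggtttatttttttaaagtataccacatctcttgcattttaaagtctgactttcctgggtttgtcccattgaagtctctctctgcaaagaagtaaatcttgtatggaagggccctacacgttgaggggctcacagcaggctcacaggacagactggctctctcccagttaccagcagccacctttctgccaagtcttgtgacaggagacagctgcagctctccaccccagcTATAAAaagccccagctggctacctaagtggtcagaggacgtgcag
Atp5k: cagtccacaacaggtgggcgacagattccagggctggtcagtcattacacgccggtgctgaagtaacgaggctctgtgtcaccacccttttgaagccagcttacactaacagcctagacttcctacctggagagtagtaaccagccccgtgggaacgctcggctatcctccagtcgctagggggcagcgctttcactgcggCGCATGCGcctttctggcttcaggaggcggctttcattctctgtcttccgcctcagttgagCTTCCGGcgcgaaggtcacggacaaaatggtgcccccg
Cycs: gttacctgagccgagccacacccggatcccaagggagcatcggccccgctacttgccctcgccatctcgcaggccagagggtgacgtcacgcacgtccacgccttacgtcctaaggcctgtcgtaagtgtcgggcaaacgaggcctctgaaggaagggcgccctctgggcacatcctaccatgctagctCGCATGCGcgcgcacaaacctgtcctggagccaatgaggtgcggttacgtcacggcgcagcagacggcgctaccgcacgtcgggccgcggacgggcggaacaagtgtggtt
Promoters were found for 32 of the 44 members. CGCATGCG was in 8 of them (Atp5g2, Atp5j, Atp5k, Atp5l, Cox6a1, Cycs, Uqcr11 and Uqcrc1), against 2.07% of the 27025 gene symbols with a promoter. CCGGAAG was in 10, against 9.93%, and TATAAA in 3 (Atp5l, Cox7b2 and Cox8b), against 15.7%. Cox8a holds CCGGAAG at 2 places and neither of the other cores, while Cox8b holds TATAAA only. Some matches lie after the RefSeq start. These are the TATAAA of Cox8b, which begins at base 255 of 300, and CCGGAAG at base 283 of Cox8a and 263 of Atp5k. The median log2 fold change (FC) for AAV-A2A against AAV-GFP in microglia was -1.37 for the members with CGCATGCG and -1.70 for the other members with a promoter, and -1.72 with and -1.45 without CCGGAAG. The matches are descriptions of the letters and were not tested for binding.

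In astrocytes, the question was whether the A2A receptor changes these genes in the cells that carry it. No member was called by edgeR's quasi-likelihood test at adjusted p under 0.05 and absolute log2 FC over 0.32, of 44 tested, against 3.36% of all 16451 genes tested. None had an unadjusted p under 0.05, where 13.0% of all genes had (6 had without GFP-303), and DESeq2 called none, where it called 4.62% of genes. The log2 FC of the members went from -0.19 to 0.95 with a median of 0.20, and 37 of 44 were above 0, beside a median of 0.02 over all genes. The median was 0.21 for complex III, 0.22 for complex IV and 0.10 for ATP synthase. With each library's trend on transcript length and GC content removed, the median of the members was 0.06.

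The 4 members with the smallest p in astrocytes are given with their libraries. Atp5d, the delta subunit of ATP synthase, had 525 CPM in GFP-303, 475 in GFP-306 and 512 in GFP-307, and 673, 561 and 624 in the AAV-A2A libraries 309, 310 and 313 (log2 FC 0.33 ± 0.157 SE, edgeR adjusted p = 0.432). Uqcrc2, a core protein of complex III, had 256, 249 and 247 CPM against 274, 303 and 351 (log2 FC 0.33 ± 0.166, edgeR adjusted p = 0.454). Cox8a had 412, 307 and 366 CPM against 498, 441 and 412. For these 3 genes every AAV-A2A library lay above every AAV-GFP library, by less than 1 CPM between GFP-303 and A2A-313 for Cox8a. Atp5g1 had 16.8, 12.9 and 10.9 CPM against 20.6, 21.1 and 16.2, and here the groups overlapped. In all, 4 of 44 members (these 3 and Cyc1, with 515 to 605 against 605 to 725 CPM) lay wholly higher with AAV-A2A, where 7.84% of all genes did. None lay wholly lower, where 1887 of 16356 genes did.

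In microglia, the comparison asked whether cells next to those with the receptor differ. No member was called by edgeR, of the 43 tested (Cox7b2 was too low), as no gene was (0.00% of 16949), while DESeq2 also called no member but 1.66% of all genes. The values lay lower with AAV-A2A, with a median log2 FC of -1.52, beside -0.05 over all genes, and 41 of 43 members below 0. Markers of some other cell types were lower with AAV-A2A too, with no overlap of the groups and GFP-2331 included. The 5 ependymal markers summed to 169 to 314 CPM with AAV-GFP against 33.7 to 67.6 with AAV-A2A, the 5 endothelial markers to 547 to 1352 against 269 to 348, and the 4 erythrocyte markers to 890 to 5315 against 50.7 to 228. The 7 neuron markers summed to 17.75 to 193 CPM with AAV-GFP against 4.72 to 13.9 with AAV-A2A. The sums of astrocyte, oligodendrocyte and choroid plexus markers overlapped between the groups. By edgeR, unadjusted p was under 0.05 for 4 ependymal, 3 endothelial, 4 erythrocyte and 3 neuron markers, all lower. The median log2 FC of these lists was -2.13, -1.77, -4.05 and -2.37. Without the 3 libraries with high choroid plexus markers, which leaves 1 AAV-GFP library, it was -1.77, -0.85, -1.98 and -0.72. No marker was called, and the part of such cells in the members' values was not tested. The log2 FC of the members ranged from -2.62 (Cox7a1) to 0.51 (Cox6a2). Unadjusted p was under 0.05 for 13 of 43 members, all with lower values, against 6.27% of all genes in that direction. The median was -1.48 for complex III, with 2 of 9 at unadjusted p under 0.05, -1.66 for complex IV, with 6 of 16, and -1.45 for ATP synthase, with 5 of 17.

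By library, Cox7c, a small subunit of complex IV, had 15.1, 9.52 and 11.2 CPM in GFP-2328, GFP-2329 and GFP-2331, and 5.02, 5.56 and 4.26 in A2A-2343, A2A-2344 and A2A-2347 (log2 FC -1.31 ± 0.388 SE, edgeR unadjusted p = 0.0123, adjusted p = 0.280). The groups did not overlap, and the libraries with high Ttr did not stand out for this gene. Atp5k had 27.5, 27.5 and 6.66 CPM against 3.45, 2.01 and 6.65 (log2 FC -2.35 ± 0.754, edgeR adjusted p = 0.280), so that GFP-2331 and A2A-2347 were level. Cox7a2, the common form of subunit 7a, had 108, 126 and 35.3 CPM against 19.1, 10.7 and 36.7 (log2 FC -2.02 ± 0.674, edgeR adjusted p = 0.282), and GFP-2331 fell below A2A-2347. Atp5j2, subunit f of ATP synthase, had 105, 115 and 40.2 CPM against 28.4, 14.7 and 38.8 (log2 FC -1.68 ± 0.565, edgeR adjusted p = 0.282). Here the groups were apart by the small step from 38.8 to 40.2 CPM. In all 7 members (Cox7c, Cox6a1, Cox6b1, Atp5k, Atp5j2, Atp5c1 and Uqcrc2) lay wholly lower with AAV-A2A, of 43 tested, where 10.6% of all genes did. The lowest AAV-GFP library of each of them other than Cox7c was GFP-2331. These levels used the TMM factors of all 12 libraries, 0.915 for GFP-2331 and 1.11 for A2A-2347. Within the CD11b fraction, where the log2 FC was fitted, they were 0.941 and 1.02. With the latter, A2A-2347 lies above GFP-2331 for Atp5k, Atp5j2, Cox6a1, Cox6b1 and Uqcrc2. Of the 7, only Cox7c and Atp5c1 then stay wholly lower. The count of 7 thus depends on the scaling, and the 10.6% was counted with the factors of all 12 libraries only.

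Without the 3 libraries with high choroid plexus markers, 1 AAV-GFP library stood against 2 AAV-A2A libraries, and the lone library was taken to vary like the others. The median log2 FC of the 42 members tested was then -0.82, none was called and none had an unadjusted p under 0.05. Within that set the order of single members varied. Cox6a1 had 130 CPM in GFP-2331 against 103 and 37.5 in A2A-2343 and A2A-2344, whereas Atp5a1, the alpha subunit of ATP synthase, had 661 CPM in GFP-2331 against 745 and 517, and Cycs 2.32 against 2.28 and 3.11. Leaving out GFP-2331 instead gave a median of -1.92 with 32 members at an unadjusted p under 0.05, and leaving out A2A-2347 gave -1.98 with 30. Without GFP-2328, GFP-2329 or A2A-2344 the count fell to 1, and without A2A-2343 to 2.

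**Figure D4:**
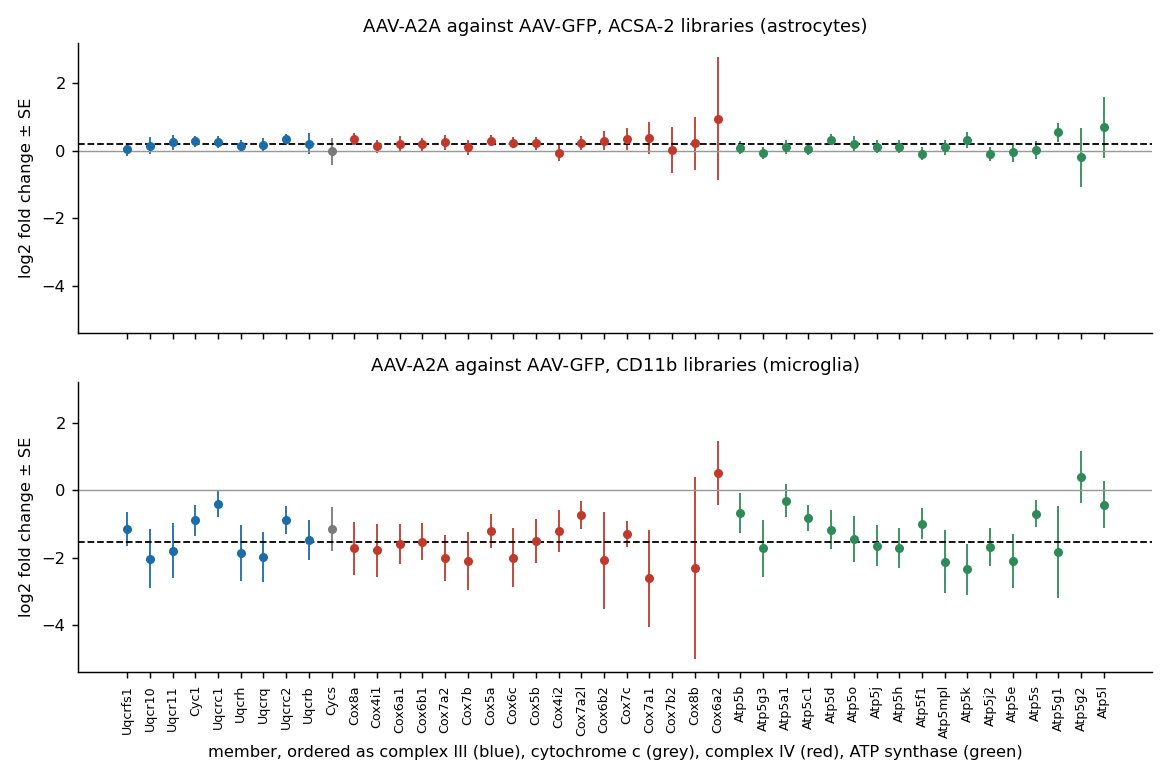
Log2 fold change ± SE for AAV-A2A against AAV-GFP of each member in astrocytes (top) and microglia (bottom), coloured by complex, with the median as a dashed line at 0.20 and at -1.52. No member passes the adjusted threshold in either fraction, and Cox7b2 was not tested in microglia.

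Whether the vectors acted differently in the fractions was tested with all 12 libraries in one fit. No member was called by edgeR for the effect in microglia less that in astrocytes, of 44 tested, against 0.403% of 18602 genes. The median of this difference was -1.64 over the members and -0.10 over all genes, and 25 members had an unadjusted p under 0.05, all lower, against 8.28% of all genes in that direction. The smallest p were those of Atp5k (difference -2.63 ± 0.755 SE on the log2 scale, edgeR adjusted p = 0.108), Cox7c (-1.59 ± 0.497, adjusted p = 0.126), Cox7a2 (-2.24 ± 0.705, adjusted p = 0.126) and Atp5h, subunit d of the ATP synthase stalk (-1.79 ± 0.613, adjusted p = 0.146). DESeq2 called 3 members (Atp5k, Cox7c and Cox7a2), where it called 6.91% of genes in either direction. Without GFP-2331, edgeR called 11 members, all lower, among them Atp5k, Cox7a2 and Atp5h, where it called 1.85% of all genes lower, and without the 3 libraries with high choroid plexus markers it called 0, with 7 at an unadjusted p under 0.05 and a median of -0.95.

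Between the fractions, most members were called lower in microglia than in astrocytes with AAV-A2A, and few were with AAV-GFP. The difference between these comparisons is the interaction above, in which edgeR called no member. They share no library, but were fitted together. With AAV-GFP the median log2 FC for microglia against astrocytes was -0.55, beside 0.11 over all genes. Here 7 of 44 members were called lower by edgeR (adjusted p under 0.05) and none higher, also at an unadjusted p under 0.05, where 12.3% of all genes were called lower. DESeq2 called 9 lower, where it called 12.3% of all genes lower. The members' share was near that of all genes. With AAV-A2A the median was -2.25, beside 0.05 over all genes, and 35 of 44 members were called lower and none higher, also at an unadjusted p under 0.05, where 21.0% of all genes were called lower, and DESeq2 called 37 lower, against 19.4% of all genes. The 35 were all 9 of complex III, Cycs, 13 of 17 of complex IV and 12 of 17 of ATP synthase. The members not called were Cox6a2, Cox6b2, Cox7a1 and Cox8b of complex IV and Atp5a1, Atp5b, Atp5g1, Atp5g2 and Atp5l of ATP synthase. They include the 4 minor paralogs that were high in the libraries with high Ttr, and both subunits of the catalytic head, Atp5a1 (log2 FC -0.48 ± 0.346 SE) and Atp5b (-0.91 ± 0.405, edgeR adjusted p = 0.0844).

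The 7 members called with AAV-GFP belong to different parts of the chain. In complex III these were Uqcrfs1 (590, 435 and 448 CPM in AAV-GFP astrocytes, and 227, 205 and 103 in AAV-GFP microglia, log2 FC -1.46 ± 0.378 SE, edgeR adjusted p = 0.0152) and Uqcrc1, the other core protein (850, 853 and 838 against 534, 474 and 409, log2 FC -0.84 ± 0.286, adjusted p = 0.0482). In complex IV they were Cox4i2 (log2 FC -2.61 ± 0.484, adjusted p = 0.00263), Cox5a, a regulatory subunit with a site for thyroid hormone (155, 119 and 117 against 63.8, 55.1 and 27.5 CPM, log2 FC -1.42 ± 0.368, adjusted p = 0.0156), and Cox7b2, a form of subunit 7b known from testis. In ATP synthase they were Atp5c1, the gamma subunit of the rotor (653, 525 and 484 against 263, 277 and 187 CPM, log2 FC -1.19 ± 0.303, adjusted p = 0.0137), and Atp5o, the subunit that joins the head to the outer stalk (286, 228 and 172 against 90.5, 85.6 and 29.3, log2 FC -1.74 ± 0.514, adjusted p = 0.0276). For each of these 7 every microglia library lay below every astrocyte library, GFP-2328 and GFP-2329 included, as for 18 of the 44 members in all, where 23.9% of all genes did. Uqcrc1 is the least certain of them, since its adjusted p lay above 0.05 under 12 of the alternatives run.

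Cox7b2 was close to the limit of detection in microglia. Its counts were 150, 58 and 57 in AAV-GFP astrocytes and 5, 0 and 0 in AAV-GFP microglia, a ratio of 59.7 with an exact 95% interval of 25.3 to 186. With AAV-A2A they were 110, 98 and 78 against 0, 0 and 3, a ratio of 101 with an interval of 34.2 to 492. Both intervals cover counting error only, on totals that were not scaled by TMM.

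The members that fell most with AAV-A2A, by complex, were as follows. In complex III these were Uqcr10 (214, 224 and 177 CPM in AAV-A2A astrocytes, and 18.6, 7.01 and 42.9 in AAV-A2A microglia, log2 FC -3.17 ± 0.6998 SE, edgeR adjusted p = 0.00336), Uqcr11 (log2 FC -2.90 ± 0.651, adjusted p = 0.00365) and Uqcrh, the hinge protein that binds cytochrome c1 (-2.85 ± 0.641, adjusted p = 0.00366). In complex IV, beside Cox7b2, they were Cox4i2 (-3.71 ± 0.509, adjusted p = 0.000195) and Cox5a (162, 157 and 153 against 25.03, 11.5 and 27.5 CPM, log2 FC -2.88 ± 0.388, adjusted p = 0.000174). In ATP synthase they were Atp5o (239, 316 and 225 against 21.0, 11.0 and 43.2 CPM, log2 FC -3.37 ± 0.548, adjusted p = 0.000509), Atp5k (46.7, 35.0 and 34.2 against 3.45, 2.01 and 6.65, log2 FC -3.25 ± 0.573, adjusted p = 0.000840) and Atp5g3 (log2 FC -2.67 ± 0.642, adjusted p = 0.00547). Cycs had 8.68, 9.81 and 8.56 CPM against 2.28, 3.11 and 3.17 (log2 FC -1.66 ± 0.554, adjusted p = 0.0289). Of all 44 members, 38 lay wholly lower in AAV-A2A microglia, where 28.3% of all genes did. One, Cox6a2, lay wholly higher, where 29.9% of all genes did, without passing the threshold (edgeR adjusted p = 0.151).

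The counts of called members with AAV-GFP rested on single libraries. Without GFP-303 of the astrocytes, 2 were called, where 8.30% of all genes were called lower, without GFP-307 4 were, where 8.15% were, and without any other single library 5 to 8. Without the 3 CD11b libraries with high choroid plexus markers, GFP-2331 alone stood for AAV-GFP microglia, and 29 members were called lower with a median log2 FC of -1.87, with 6 in complex III, 12 in complex IV and 11 in ATP synthase, where 12.5% of all genes were called lower. With AAV-A2A, 40 were then called lower, where 20.5% of all genes were, with a median of -2.89, and leaving out single libraries gave 31 to 38. The lower levels in microglia with AAV-A2A were thus as large without A2A-2347 (median -2.92).

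Transcript length moved with these fold changes. The members are short, with a median longest transcript of 896 bases against 2877 over nuclear protein-coding genes, and 26 of 44 have at most 1200 bases. In microglia, AAV-A2A against AAV-GFP, other protein-coding genes had a median log2 FC of -1.21 up to 800 bases, -0.86 from there to 1200 bases and 0.48 over 5000 bases, where members of the first 2 classes had medians of -1.78 and -1.68. For AAV-A2A microglia against astrocytes the same 3 values were -2.21, -1.67 and 1.07 for other genes, and -2.36 and -2.43 for members up to 800 and 1200 bases. Short genes other than members, with at most 1000 bases, held 2.28 and 2.07% of the counts in A2A-2344 and A2A-2347, against 3.68 to 6.16% in the other 4 CD11b libraries and 5.28 to 7.65% in the ACSA-2 libraries. Genes over 3000 bases held 57.8 and 57.6% in A2A-2344 and A2A-2347 and 40.9 to 44.3% in the other CD11b libraries. With the trend on length and GC content removed from each library, the median of the members in microglia went from -1.52 to -0.93 with 3 in place of 13 at an unadjusted p under 0.05. For AAV-A2A microglia against astrocytes it went from -2.25 to -1.33, with 28 in place of 35 called, where 18.4% of all genes were called lower.

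**Figure D5:**
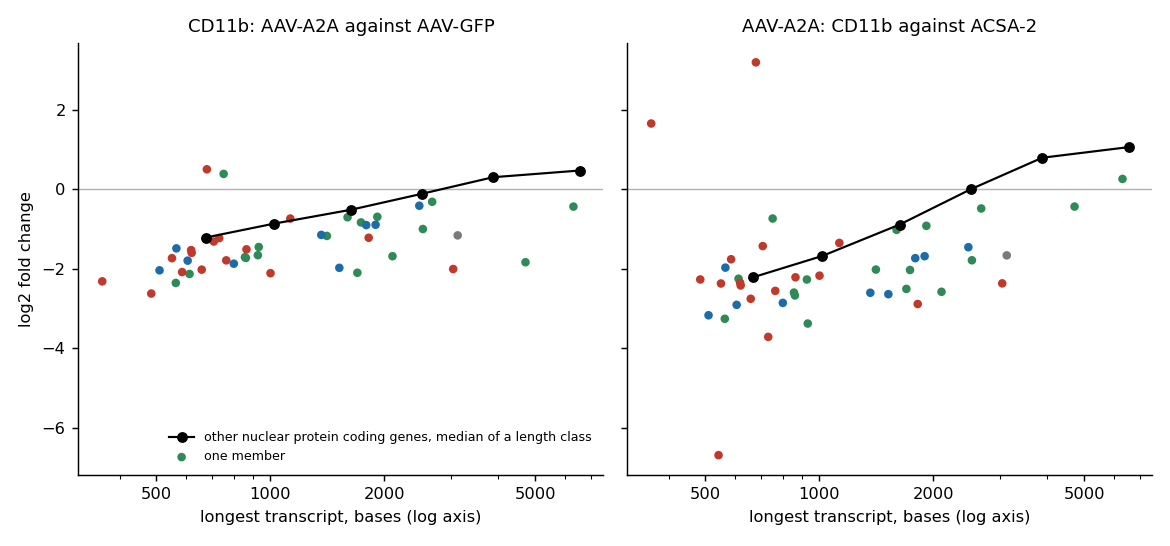
Log2 fold change of each member (coloured by complex) against its longest transcript (log axis), with the median of other nuclear protein-coding genes by length class in black, for AAV-A2A against AAV-GFP in microglia (left) and microglia against astrocytes with AAV-A2A (right). Most members lie below the black line, which itself rises from -1.21 to 0.48 on the left and from -2.21 to 1.07 on the right.

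The subunits of the same complexes that mitochondrial DNA encodes did not have the members' order of libraries. Of these, mt-Cytb (cytochrome b of complex III) and mt-Co1 (the catalytic subunit of complex IV) were measured, and the other subunits were not analysed here. mt-Cytb had 4514 and 3344 CPM in GFP-2328 and GFP-2329, 848.5 in GFP-2331, and 774, 712 and 570 in A2A-2343, A2A-2344 and A2A-2347. It had 745 to 1150 CPM in AAV-GFP astrocytes and 779 to 2816 in AAV-A2A astrocytes, where A2A-310 alone was above 1139. A2A-2347, which had the highest share of counts on members among the AAV-A2A microglia, thus had the lowest mt-Cytb. Without the 3 libraries with high choroid plexus markers, the median of both genes for AAV-A2A against AAV-GFP in microglia was -0.08, beside -0.82 for the members. Neither gene was called in any of the comparisons, and in microglia both had an unadjusted p under 0.05 for lower values with AAV-A2A (edgeR adjusted p above 0.05).

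Lists drawn up for assembly of the complexes were compared between the fractions beside the same background. In it, 12.3% of all genes were called lower and 14.4% higher with AAV-GFP, and 21.0% lower and 25.0% higher with AAV-A2A. Ndufa4 was placed in the list for complex IV and Usmg5 in that for ATP synthase, and both were called lower with AAV-A2A. With AAV-GFP the shares of the lists for complexes III and IV were near that background. Of 6 assembly genes of complex III, 1 was called lower with AAV-GFP and 5 with AAV-A2A. They include Uqcc2, needed for making cytochrome b (log2 FC -1.30 ± 0.385 SE and -3.08 ± 0.411, edgeR adjusted p = 0.0276 and 0.000166), and Uqcc3 (-2.07 ± 0.401 with AAV-A2A, adjusted p = 0.00151). Of 24 for complex IV, 3 were called lower and 3 higher with AAV-GFP, and 15 lower and 3 higher with AAV-A2A. The lower ones include Cox10, which makes heme for the complex (-1.44 ± 0.238 with AAV-GFP, adjusted p = 0.00135), and Coa6 (-2.53 ± 0.449 with AAV-A2A, adjusted p = 0.000870). The higher ones include Lrpprc, which stabilises mitochondrial mRNAs (1.79 ± 0.402 and 2.62 ± 0.413, adjusted p = 0.00729 and 0.000427). Of 6 in the list for assembly and inhibition of ATP synthase, 2 were called lower with AAV-GFP and 5 with AAV-A2A. Among them, Fmc1 had 161, 165 and 138 CPM in AAV-A2A astrocytes and 3.11, 1.33 and 5.27 in AAV-A2A microglia (log2 FC -5.57 ± 0.602, edgeR adjusted p = 5.86e-05). With AAV-GFP, Fmc1 (-2.93 ± 0.530, adjusted p = 0.00231) was joined by Tmem70 (-1.20 ± 0.323, adjusted p = 0.0185). Without the 3 libraries with high choroid plexus markers, 1, 4 and 1 genes of the lists for complex III, complex IV and ATP synthase were called lower with AAV-GFP, and 5, 15 and 5 with AAV-A2A, and Tmem70 was no longer called with AAV-GFP (edgeR adjusted p = 0.0523). In the vector comparisons edgeR called no gene of these lists. At an unadjusted p under 0.05, 2 of complex III were higher in astrocytes, where 709 of 16451 genes were. In microglia 1 of complex III, 9 of complex IV and 2 of ATP synthase were lower, where 6.27% of all genes were. There 3 of complex IV were higher, where 1641 of 16949 genes were. The median log2 FC of these lists in microglia was -0.71, -0.96 and -0.90. Without the 3 libraries with high choroid plexus markers, which leaves 1 AAV-GFP library, it was -0.33, -0.65 and -0.56.

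The regulators had more genes called higher than lower. Of 11 transcription factors, coactivators and mitochondrial transcription genes, 2 were called higher in microglia with AAV-GFP and 7 with AAV-A2A, and none lower, also at an unadjusted p under 0.05, and their median log2 FC was 0.05 and 1.25, beside 0.11 and 0.05 over all genes. The share with AAV-GFP was near the 14.4% of all genes called higher, and that with AAV-A2A stood beside 25.0%. Without the 3 libraries with high choroid plexus markers, 1 was called higher and 1 lower with AAV-GFP, and 6 higher and 1 lower with AAV-A2A, and Polrmt was no longer called with AAV-GFP (edgeR adjusted p = 0.0545). Pprc1, a coactivator of the PGC-1 family, had 4.14, 0.591 and 2.22 CPM in AAV-A2A astrocytes against 31.3, 111 and 77.9 in AAV-A2A microglia (log2 FC 4.98 ± 0.751 SE, edgeR adjusted p = 0.000329). Polrmt, the RNA polymerase of mitochondria, had 8.06 to 11.1 CPM against 29.8 to 75.6 (log2 FC 2.51 ± 0.354, adjusted p = 0.000225), and with AAV-GFP a log2 FC of 1.41 ± 0.342 (adjusted p = 0.0107). Gabpb1, a subunit of the GABP factor, was the largest rise with AAV-GFP (2.08 ± 0.380, adjusted p = 0.00237). Ppargc1a, the founding PGC-1 coactivator, named here after its values were seen, was not called and followed the libraries with high Ttr, with 52.5, 28.2 and 30.7 CPM in GFP-2328, GFP-2329 and A2A-2347, and 0.992, 2.85 and 0.976 in GFP-2331, A2A-2343 and A2A-2344.

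Beside these, complex I and the ribosomal proteins are given for comparison, with the same shares of all genes called (12.3% lower and 14.4% higher with AAV-GFP, 21.0% lower and 25.0% higher with AAV-A2A). Of 35 nuclear subunits of complex I, 14 were called lower in microglia with AAV-GFP and 33 with AAV-A2A, with medians of -1.03 and -2.62, and in microglia their median for AAV-A2A against AAV-GFP was -1.51. Of 77 cytosolic ribosomal proteins, 5 were called higher and none lower with AAV-GFP, and 2 higher and 20 lower with AAV-A2A, and the matching medians were 0.21, -0.67 and -0.81. For the members these medians were -0.55, -2.25 and -1.52. Without the 3 libraries with high choroid plexus markers, 24 and 34 subunits of complex I were called lower with AAV-GFP and AAV-A2A, and 0 and 10 ribosomal proteins, with medians in microglia of -0.89 and -0.61 for AAV-A2A against AAV-GFP. No test between the lists was made.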

How the data were processed

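Hippocampal ACSA-2 (astrocyte) and CD11b (microglia) cells of AAV-GFP and AAV-A2A mice were profiled by RNA sequencing, with 3 libraries in each of 4 groups. The deposited values are raw read counts per Ensembl gene, made by the authors. The submitters' processing notes name bcl2fastq, cutadapt 1.10, STAR 2.5.3, HTSeq 0.6.1p1 and mm10, and reads were counted when they matched once and fell on 1 gene. No molecular identifiers were used, so intervals and floors cover counting error only. The 25 unnamed empty columns were not used.

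Groups came from the sample labels. Vector comparisons were fitted within each fraction, and comparisons of fractions and their interaction over all 12 libraries, in R 4.3.3 with edgeR 4.0.16, using TMM factors, filterByExpr, a robust quasi-likelihood fit and Benjamini-Hochberg adjustment over all genes tested. Called means adjusted p under 0.05 and absolute log2 FC over 0.32. Levels are TMM-scaled CPM over all 12 libraries. Alternatives were DESeq2 1.42.0, limma-voom (limma 3.58.1), RLE scaling, other filters, an offset for length and GC content, other sets of libraries and each library left out. Names, positions and lengths are from GENCODE vM21. Replicate libraries of a group all differed beyond sampling noise (chi-square over its degrees of freedom 51.6 to 1200), and no 2 were taken as 1. The labels do not say that each library is a separate animal, so p-values measure the spread between libraries. The steps were also run on simulated counts, in which genes picked at random were changed by known folds. These held no admixture of other cells and no trend on transcript length, so they do not test the fits under such patterns.

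The members and lists were chosen with earlier results of these data known. Members are named where called (with over 12 called, the 3 largest rises and falls of each complex), where none was called for the 4 smallest p, for the highest level per kb in each complex, as paralogs of 1 subunit, or as Cycs, Cyc1, Uqcrfs1 and Atp5b. From other lists the 2 called genes with the largest absolute log2 FC are named, and any other gene named was chosen after its values were seen.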

Additional observations from a re-analysis of the deposited data

How the results depend on the processing

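No paired analysis was possible because the groups share no replicate numbers. Leaving out each library in turn, the members called lay between 31 and 38 for microglia against astrocytes with AAV-A2A, between 2 and 8 with AAV-GFP, between 0 and 11 for the interaction (11 without GFP-2331), and at 0 in both vector comparisons. The median log2 FC then lay between -2.92 and -1.85, between -0.86 and -0.23, and between -2.07 and -1.34, and in the vector comparisons between 0.09 and 0.33 in astrocytes and between -1.98 and -1.24 in microglia. DESeq2 called 3 members in the interaction, where edgeR called 0 with 25 at an unadjusted p under 0.05. With the trend on length and GC content removed, the median with AAV-A2A was -1.33. Without the 3 libraries with high choroid plexus markers, a setting chosen after seeing the data that leaves fewer libraries, it was -2.89, and with AAV-GFP 29 members were called with a median of -1.87. The cause of these shifts was not tested. No median changed sign. Of 505 values for single genes under alternatives, 468 stayed on their side of the threshold, 29 no longer passed it, 6 came to pass it and 2 moved. Uqcrc1 (AAV-GFP, 12 alternatives), Cycs (AAV-A2A, 7) and Atp5o (AAV-GFP, 5) lost the call most often. The level of Atp5b per kb moved from 499.6 to 1105 in ACSA-2 and from 351 to 776 in CD11b libraries when the longest transcript was the length. With 3 libraries a group and a biological coefficient of variation of 0.520 in ACSA-2 and 0.707 in CD11b libraries, the spread between libraries limits the microglia comparison.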
